A study of Ambystoma mexicanum with 12 samples.

Results

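Retinoic acid (RA) and LE135 were given separately to regenerating axolotl forelimbs, and the 8 drug-treated samples were set together against the 4 vehicle (DMSO) samples to find expression that shifted the same way under both. A probe set belonged to this shared response when the 8 drug samples lay entirely above or entirely below the 4 DMSO samples. That held for 772 of 20035 probe sets, 332 higher with the drugs (1.66% of those tested) and 440 lower (2.2%). Of the 772, 503 also passed the test of both drugs against DMSO, 226 higher and 277 lower, while 106 higher and 163 lower did not pass it. The 503 carried 243 named genes through the brightest probe set of each gene, 90 higher and 153 lower, and these are called the common genes below.

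Retinoic acid is made from retinol by successive oxidations, is broken down by enzymes of the CYP26 family and acts through nuclear receptors (RAR, partnered by RXR) that sit on DNA and switch their target genes. Cells exposed to it usually raise the genes that clear it, so that CYP26A1 and DHRS3 are much used as readouts of receptor activity. In a regenerating salamander limb, added RA makes the blastema, the mound of dividing cells on the stump, rebuild more proximal structures than were lost. LE135 is known as a man-made compound that blocks the beta form of the receptor.

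The tissue was the forelimb blastema of juvenile axolotls (Ambystoma mexicanum), amputated through the lower arm. Animals were housed with DMSO, RA or LE135 from day 7 to day 14 after amputation, with the solution renewed every other day, and on day 14 the blastemas were collected, with stump tissue kept out as far as possible. Per the series' design text, limbs under DMSO go on to regenerate normally, those under RA duplicate proximodistal structures and those under LE135 end truncated. Each treatment had 16 animals, and a sample was a pool of 1 forelimb from each of 4 animals. As far as the labels go the groups differed in the agent alone. The sources used here give neither genotype nor dose, and a pool hides the spread between its animals.

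Values were deposited log2 levels from 12 Affymetrix arrays, with array medians from 6.61 to 6.70 and lowest values from 3.06 to 3.15. DMSO 4 and LE135 4 stood apart from the rest: their mean correlation with the other samples of their group was 0.978 and 0.986, against 0.989 to 0.996 for the other 10 samples. The mesenchyme marker PRRX1 was measured but dim (mean log2 level 5.94), while 11 blastema mesenchyme markers averaged 10.28 to 10.89 per sample. In whole blastemas, fewer cells of a type and less RNA per cell cannot be told apart.

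Across all probe sets 691 passed the test of both drugs against DMSO (limma, adjusted p under 0.05), 329 higher (1.64%) and 362 lower (1.81%), and 266 of them differed more than 1.5-fold. Counted as genes, 139 of 8639 were higher (1.61%) and 203 lower (2.35%). Passing did not require both drugs to move a gene: LMO1 passed with -1.68 under RA and 0.05 under LE135. Of the 691 probe sets 188 overlapped between groups. Overlap alone does not mark a gene moved by 1 drug, as KREMEN1 overlapped with 0.60 under RA and 0.59 under LE135. A stricter rule took the larger limma p of RA against DMSO and LE135 against DMSO and adjusted it again over all probe sets. Both drugs also had to differ from DMSO in the same direction. It left 98 probe sets, 61 higher and 37 lower, with 44 common genes among them. This asks more than each contrast passing by itself. Of the 90 genes named here by rule, 24 passed in that way. MATN4, EHF, IGFBP6, MEIS2, EMP1 and P2RY4 were among those that did not (larger limma p, adjusted: 0.16, 0.122, 0.183, 0.468, 0.198 and 0.411). NRIP1 did not either (0.108), though RA alone and LE135 alone each passed against DMSO (limma adjusted p = 0.000166 and 0.0483). In the words used here, a gene rose or fell only if it passed the pooled test, and its difference is the mean of the RA and LE135 log2 levels minus the DMSO level, with its standard error (SE).

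The common rises were larger than the common falls. The 90 higher genes had a median difference of 0.60, 47 of them over 1.5-fold and 23 over 2-fold. Among the 153 lower genes the median was -0.41, with 33 over 1.5-fold and 12 over 2-fold. The median over all probe sets was -0.001.

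CYP26A1, of retinoid breakdown, had the largest rise among the common genes. This oxidase of retinoic acid read 5.05, 8.31, 8.82 and 4.66 in DMSO 1 to 4. It read 12.46, 12.45, 12.63 and 12.77 in RA and 12.12, 12.10, 12.54 and 12.28 in LE135. The drug samples lay within a narrow band far above DMSO, whose own samples split into a low and a middle pair, and the groups did not overlap. The difference was 5.71 (SE 0.69, limma adjusted p = 0.00146), a 52.2-fold rise of the geometric mean, and it ran from 5.02 without DMSO 4 to 6.41 without DMSO 3.

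DHRS3 reduces retinaldehyde back to retinol. Its levels were 9.91, 10.72, 10.72 and 9.36 in DMSO, 12.34, 12.32, 12.48 and 12.58 in RA, and 11.79, 11.83, 12.09 and 12.004 in LE135. All RA samples stood above all LE135 samples, which stood above all DMSO samples. It rose by 2.00 (SE 0.22, limma adjusted p = 0.000786).

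Of 23 measured genes of retinoid metabolism, carriers and receptors, 8 rose and 0 fell, against 139 and 203 of all 8639 genes, and 7 of the 8 were common. Without DMSO 4 and LE135 4 the counts were again 8 and 0. The list and its members were chosen with earlier results of these data known.  Among enzymes that oxidize retinol or retinaldehyde, SDR16C5, a retinol dehydrogenase, rose by 1.36 (SE 0.19). ALDH1A3, which makes retinoic acid, rose by 1.16, while ALDH1A2, which also makes it, did not pass. CRABP2, a carrier of retinoic acid in the cell, rose by 1.18 (SE 0.21), from between 10.77 and 12.23 in DMSO to between 12.35 and 12.96 with the drugs. RARG, retinoic acid receptor gamma, rose by 0.54 (SE 0.07), although a second, dimmer probe set differed by 0.07 and did not pass. The list median was 0.09, and RARA (0.09), ALDH1A2 (0.05) and CYP26C1 (-0.08) are among the 15 that did not pass.

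CYP26B1, a second oxidase of retinoic acid, was the 1 riser of the list whose groups overlapped. It read 6.84, 7.62, 7.49 and 6.14 in DMSO, 9.83, 9.51, 9.56 and 9.56 in RA and 8.60, 8.86, 8.95 and 7.61 in LE135. LE135 4 lay just below the highest DMSO sample, and all other drug samples stood above. The difference was 2.04 (SE 0.29, limma adjusted p = 0.00381).

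**Figure D1:**
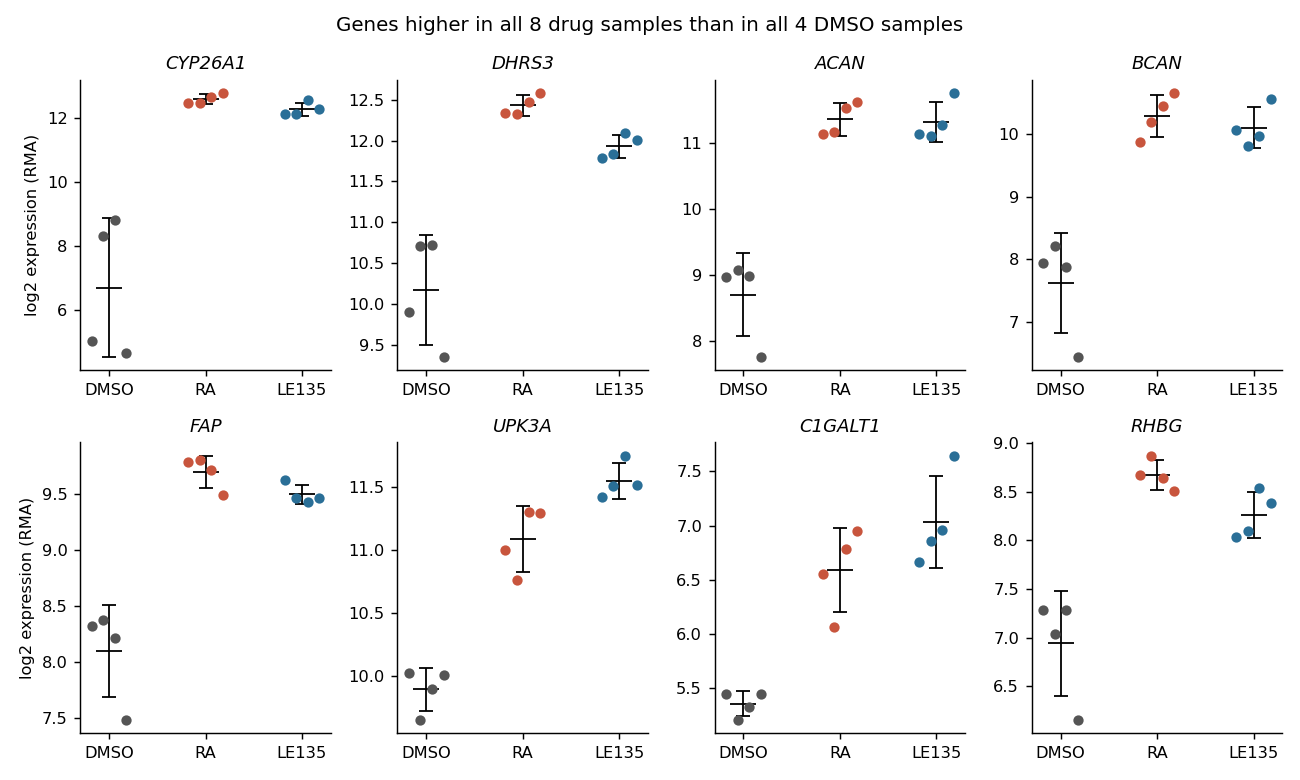
Log2 expression (RMA) of 8 common genes in each of the 12 samples, by treatment. Each point is a sample, and the bar is the group mean with its SD (n = 4). In CYP26A1 the 8 drug samples sit between 12.10 and 12.77 and the DMSO samples between 4.66 and 8.82.

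NRIP1, a corepressor of nuclear receptors including RAR, was the 1 common gene that also differed between the drugs. In DMSO it read 8.20, 8.33, 8.31 and 7.97, in RA 9.43, 9.47, 9.70 and 9.66 and in LE135 8.63, 8.78, 8.74 and 8.45. The 3 groups formed separate steps, with LE135 near DMSO and RA well above. It rose by 0.91 with both drugs (SE 0.09, limma adjusted p = 0.000416), by 1.36 under RA and 0.45 under LE135, and RA exceeded LE135 by 0.91 (limma adjusted p = 0.018). Fitted with the 8 drug samples as a single group, it did not pass against DMSO (adjusted p = 0.0709).

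Among the common genes 2 matrix proteoglycans had the next largest rises. ACAN, which encodes aggrecan of cartilage, stood at 8.98, 9.08, 8.98 and 7.76 in DMSO. It stood at 11.13, 11.16, 11.53 and 11.61 in RA and 11.14, 11.10, 11.27 and 11.75 in LE135. The RA and LE135 samples cover the same range, and DMSO 4 lies below the other DMSO samples. The rise was 2.63 (SE 0.24, limma adjusted p = 0.000231).

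BCAN encodes brevican, a related proteoglycan best known from brain. It read 7.94, 8.20, 7.88 and 6.43 in DMSO, 9.87, 10.20, 10.46 and 10.67 in RA and 10.07, 9.81, 9.97 and 10.58 in LE135, again with both drugs in the same range and DMSO 4 lowest. The rise was 2.59 (SE 0.30, limma adjusted p = 0.00101). Second probe sets were dimmer for both genes, at a mean log2 level of 6.59 against 10.46 for ACAN and 4.60 against 9.34 for BCAN. ACAN's differed by -0.23 and BCAN's by 0.11, and neither passed.

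MATN4, a matrilin that links cartilage matrix filaments, had the largest fall among the common genes. Its levels were 9.29, 9.77, 9.81 and 11.55 in DMSO, 7.75, 7.23, 6.97 and 7.05 in RA and 8.93, 8.397, 8.08 and 8.63 in LE135. RA lay lowest and LE135 between RA and DMSO, with no overlap among the 3 groups, and DMSO 4 was the highest sample. The fall was -2.23 (SE 0.35, limma adjusted p = 0.00639). LE135 alone against DMSO did not pass for MATN4 (limma adjusted p = 0.0749). ACAN, BCAN and MATN4 were the 3 that changed among 53 proteoglycans and matrix glycoproteins (list median 0.11). Over all genes 1.61% rose and 2.35% fell. The cartilage and bone list scored 0.57 in DMSO 4, above the other 11 samples (-0.33 to 0.20), and its part in the MATN4 fall was not tested. In that list 2 of 18 measured genes rose and 1 fell, 11 differences were below 0 and the median was -0.09. Its cartilage collagen COL2A1 differed by -0.97, with overlapping groups, and did not pass (limma adjusted p = 0.0819). Without DMSO 4 and LE135 4 MATN4 fell by 1.77 and ACAN rose by 2.25.

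Several cell-surface proteases rose. FAP, a membrane serine protease of activated fibroblasts, read 8.32, 8.37, 8.21 and 7.49 in DMSO, 9.78, 9.80, 9.71 and 9.49 in RA and 9.62, 9.47, 9.42 and 9.46 in LE135, and no drug sample came near DMSO. It rose by 1.50 (SE 0.15, limma adjusted p = 0.000412). The connective tissue fibroblast list, which holds FAP, had 24 of 26 differences above 0 and a median of 0.23, and its part in the FAP rise was not tested. Its close relative DPP4 rose by 1.04 (SE 0.13) and the membrane metalloprotease ADAM9 by 1.15 (SE 0.12). BMP1, which trims procollagens, rose by 0.45. Its call ended in 6 of 12 omissions of a single sample, and the mean of its probe sets did not pass (limma adjusted p = 0.189).

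Of 50 extracellular proteases and inhibitors 6 rose and 4 fell, against 1.61% and 2.35% of all genes, and 4 and 4 were common. Omissions of a single sample gave 3 (without DMSO 1) to 7 rises and 3 to 5 falls. The serine protease PRSS23 fell by 1.14 (SE 0.15) and TFPI2, an inhibitor of serine proteases, by 0.89 (SE 0.12, but adjusted p = 0.052 with the 8 drug samples as a single group). ST14, the epithelial protease matriptase, fell by 0.45. A second probe set of TFPI2 also fell.

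Glycan-building enzymes moved in both directions. C1GALT1, which starts the core of mucin-type O-glycans, rose from 5.45, 5.21, 5.32 and 5.44 in DMSO to 6.55, 6.06, 6.79 and 6.95 in RA and 6.67, 6.86, 6.96 and 7.65 in LE135, with no overlap. The rise was 1.46 (SE 0.19, limma adjusted p = 0.00199). B3GNT5, which extends glycolipids, rose by 1.36 (SE 0.19) and the galactosyltransferase B4GALT3 by 0.96 (SE 0.14). UAP1, which makes the sugar donor UDP-N-acetylglucosamine, fell by 1.01 (SE 0.17), and its second probe set differed by -0.97. Of 59 glycosyltransferase genes 4 rose and 3 fell, against 1.61% and 2.35% of all genes, with a median of -0.002.

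Epithelial genes did not all move one way. UPK3A, a uroplakin of the urothelial plaque, read 10.02, 9.65, 9.90 and 10.002 in DMSO, 10.996, 10.76, 11.30 and 11.29 in RA and 11.42, 11.504, 11.75 and 11.51 in LE135, so that LE135 was above RA and RA above DMSO in all samples. It rose by 1.42 (SE 0.11, limma adjusted p = 9.59e-05), but its other 2 probe sets, at -0.11 and 0.11, did not pass. The first of these was nearly as bright (mean log2 level 10.52 against 10.84) and differed by -0.39 under RA and 0.18 under LE135. The second was dim (4.57). EHF, an epithelial transcription factor of the ETS family, rose by 1.78 (SE 0.28), by 1.37 under RA and 2.18 under LE135.

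TGM1, which cross-links the cornified layer of epidermis, fell by 1.54 (SE 0.31). Its DMSO levels were 10.91, 9.99, 9.88 and 9.74, against 8.09 to 9.47 in RA and 7.92 to 9.10 in LE135, and its call ended without DMSO 1 (adjusted p = 0.0642). JUP, the junction protein plakoglobin, fell by 0.31 (call ended in 5 of 12 omissions). Of 45 epidermis and cell junction genes 6 fell and 1 rose, against 2.35% and 1.61% of all genes. Among those that fell, TP63, the factor of basal epidermis, was at -0.57 with overlapping groups. Leaving out DMSO 1 left 1 that fell and 1 that rose, and without DMSO 4 and LE135 4 there were 8 and 2.

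**Figure D2:**
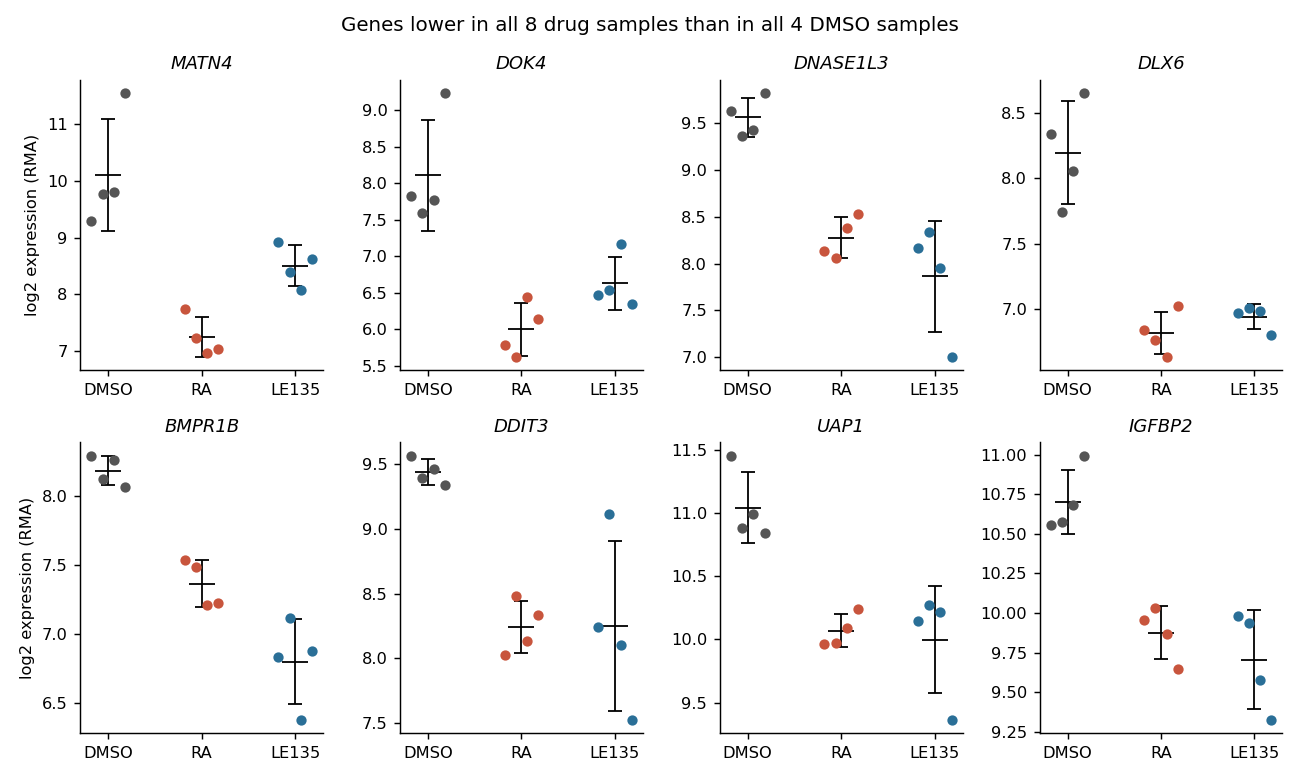
Log2 expression (RMA) of 8 common genes that fell, in each of the 12 samples by treatment. Points are samples, bars the mean and SD (n = 4). In DLX6 the drug samples lie between 6.63 and 7.02 and the DMSO samples between 7.74 and 8.65.

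Of 22 distal limb genes 2 were common, both lower, against 153 of all 8639 genes. Of 9 proximal limb genes 2 were common, both higher, against 90 of 8639. DLX6, a homeobox gene of distal limb, was the clearest of these: 8.34, 7.74, 8.05 and 8.65 in DMSO, 6.84, 6.76, 6.63 and 7.02 in RA and 6.97, 7.00, 6.99 and 6.80 in LE135. All drug samples lay in a narrow band below DMSO, and the difference was -1.32 (SE 0.14, limma adjusted p = 0.000755). BMP7 fell by 0.40, a call that ended in 9 of 12 omissions.

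BMPR1B, a type I receptor for bone morphogenetic proteins, fell by 1.10 (SE 0.12, limma adjusted p = 0.000784). It read 8.29, 8.12, 8.26 and 8.06 in DMSO, 7.54, 7.49, 7.21 and 7.22 in RA and 6.83, 7.12, 6.38 and 6.88 in LE135, so that the larger fall was under LE135. MEIS1, a factor of the upper limb, read 7.05, 7.07, 7.18 and 7.10 in DMSO, 8.05, 8.04, 8.03 and 8.06 in RA and 7.44, 7.66, 7.73 and 7.94 in LE135. RA samples were nearly equal and LE135 samples spread between RA and DMSO. The rise was 0.77 (SE 0.08, limma adjusted p = 0.000506), and MEIS2, at 0.75, rose with 2 other probe sets at 0.52 and 0.43 that did not pass, and with the 8 drug samples as a single group its adjusted p was 0.0702.

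Of 22 distal limb genes 7 fell and 1 rose, against 2.35% and 1.61% of all genes, but 2 of them, DLX6 and BMP7, were common. The falls numbered 4 without DMSO 2, DMSO 3, RA 2, RA 3 or LE135 1, and 9 without DMSO 4 and LE135 4. LMO1, a cofactor of LIM homeodomain proteins, is an example: its levels of 7.26 to 7.90 in DMSO and 7.56 to 7.73 in LE135 overlap, while RA lay between 5.49 and 6.15. LMO1 passed the pooled test at -0.81, with -1.68 under RA and 0.05 under LE135. LHX2 (-0.61), LHX9 (-0.88), ZIC5 (-0.78) and SPRY1 (-0.38) also overlapped, as did TGFB1, which rose by 1.20. With the 8 drug samples fitted as a single group, none of these 6 passed (adjusted p from 0.107 to 0.449). Of 9 proximal limb genes, MEIS1 and MEIS2 rose and none fell.

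Genes of cell division fell together, by small amounts. Of 72 genes of mitosis and chromosome segregation 27 fell and 0 rose, 20 of them common, and 67 of the 72 differences were below 0. The falls ran from -0.24 to -0.58, and the list median was -0.30, against -0.007 over all named genes, of which 203 of 8639 fell. ANLN, a scaffold of the cytokinetic ring, read 10.07, 10.06, 10.13 and 9.85 in DMSO, 9.60, 9.67, 9.64 and 9.62 in RA and 9.31, 9.36, 9.37 and 9.02 in LE135. RA lay below DMSO and LE135 below RA, without overlap, and ANLN fell by 0.58 (SE 0.07, limma adjusted p = 0.00195). However, its 2 other probe sets did not pass, nor did the mean of its probe sets (adjusted p = 0.0684). A second ANLN probe set, nearly as bright (mean log2 level 9.43 against 9.64), differed by -0.09 under RA and -0.50 under LE135. The third was dim (4.32).

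FBXO5, which holds back the anaphase-promoting complex, fell by 0.47 (SE 0.06), the spindle checkpoint protein MAD2L1 by 0.53 (SE 0.08) and the spindle motor KIF15 by 0.35 (SE 0.05). Of the mitosis list only FBXO5 and KIF15 passed the stricter rule (larger limma p, adjusted: 0.045 and 0.0429). ANLN and MAD2L1 did not (0.088 and 0.104). Condensin genes were among the list members that fell: NCAPG was common, while NCAPD2, NCAPD3, SMC2 and SMC4 overlapped between groups. So were HMMR (-0.56), NUSAP1 (-0.41) and the separase ESPL1 (-0.39), all common. The mean deviation of the mitosis list lay between 0.12 and 0.24 in DMSO, between -0.06 and 0.01 in RA and between -0.24 and -0.07 in LE135.

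Of 66 cell cycle and DNA replication genes 13 fell and 0 rose, against 2.35% and 1.61% of all genes, and 11 of the 13 were common. The list median was -0.21, with 58 differences below 0. MCM5, part of the replicative helicase, read 10.15, 10.02, 10.08 and 10.15 in DMSO, 9.86, 9.85, 9.91 and 9.80 in RA and 9.78, 9.81, 9.81 and 9.62 in LE135. Every drug sample was lower than every DMSO sample, and the fall was -0.30 (SE 0.05, limma adjusted p = 0.0116). MCM10, which loads at origins, fell by 0.47, CCNE1, a cyclin of S-phase entry, by 0.29 and RRM1, which makes deoxynucleotides, by 0.28. No gene of the cell cycle list passed the stricter rule. The larger limma p, adjusted, was 0.133 for MCM5, 0.379 for MCM10, 0.121 for CCNE1 and 0.152 for RRM1. The calls of MCM10, CCNE1 and RRM1 each ended without DMSO 1 (adjusted p = 0.0691, 0.0692 and 0.0514) and without DMSO 3, and those of CCNE1 and RRM1 also without DMSO 2. These counts depended on single samples: without DMSO 1, 1 cell cycle gene and 11 mitosis genes fell, and without DMSO 4 and LE135 4, 30 and 43. In none of these omissions did any member of either list rise.

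**Figure D3:**
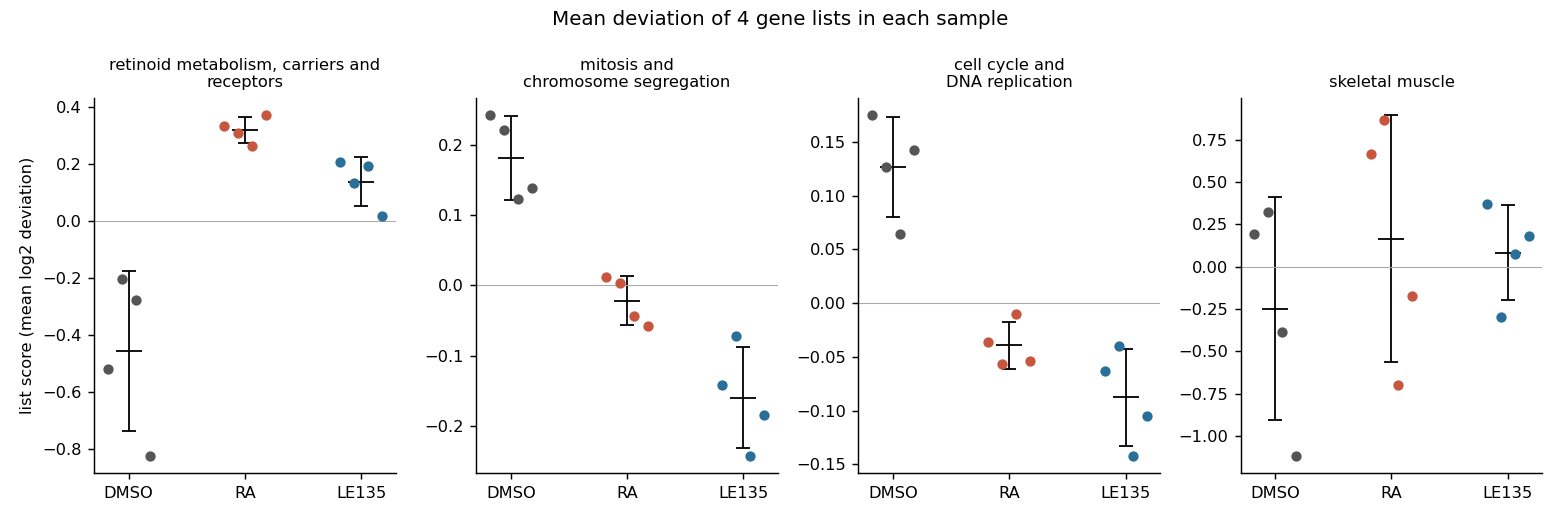
Mean log2 deviation of a list's genes from their 12-sample means, for 4 lists. Points are samples and bars the mean and SD (n = 4). The cell division lists are higher in every DMSO sample than in every drug sample, while the skeletal muscle list spreads from -1.12 (DMSO 4) to 0.87 within and between treatments.

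Of 56 lipid and cholesterol genes 7 rose and 1 fell, against 1.61% and 2.35% of all genes. The list median was 0.08, with 36 differences above 0. SMPDL3B, a membrane phosphodiesterase, rose by 1.04 (SE 0.14), SOAT1, which esterifies cholesterol, by 0.63 (SE 0.10), CYP27A1, a sterol hydroxylase, by 0.65 (SE 0.11) and the fatty acid elongase ELOVL5 by 0.49 (SE 0.07). Another elongase, ELOVL7, was the 1 that fell, at -0.58. Omissions of a single sample gave 4 to 7 rises (4 without DMSO 1, DMSO 2, DMSO 3, RA 3 or RA 4) and 0 to 2 falls.

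Transport genes included RHBG, an ammonium transporter, which rose by 1.53 (SE 0.19), the bicarbonate cotransporter SLC4A4, which rose by 1.02, and AQP3, a channel for water and glycerol, which fell by 1.40 (SE 0.27). AQP3 read 9.82 in DMSO 4 against 8.11, 8.33 and 8.3996 in the other DMSO samples, and all drug samples were at or below 7.69. Other probe sets of SLC4A4 (0.21 and -0.05, mean log2 levels 4.09 and 4.79) and AQP3 (0.08, level 4.39) were dim and did not pass. The mean of the SLC4A4 probe sets did not pass either (limma adjusted p = 0.0999). Of 66 such genes 2 rose and 3 fell, against 1.61% and 2.35% of all genes.

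DDIT3 and ATF5, transcription factors of the stress response, fell. DDIT3, induced when protein folding or amino acid supply fails, read 9.57, 9.39, 9.46 and 9.34 in DMSO, 8.03, 8.48, 8.14 and 8.33 in RA and 8.24, 9.12, 8.10 and 7.53 in LE135. LE135 2 was the drug sample closest to DMSO, and the groups stayed apart. DDIT3 fell by 1.19 (SE 0.22, limma adjusted p = 0.015), with adjusted p = 0.0521 without DMSO 1. ATF5, of the same response, fell by 0.59 (SE 0.07), and the chaperone HSP90AB1 rose by 0.22. The HSP90AB1 call ended without DMSO 1 or DMSO 3 (limma adjusted p = 0.0627 and 0.0556). Its other probe sets, nearly as bright (mean log2 level 13.72 and 13.42 against 13.74), differed by 0.06 and 0.11 and did not pass. The mean of the HSP90AB1 probe sets did not pass either (limma adjusted p = 0.24). DDIT3, ATF5 and HSP90AB1 were the 3 that changed of 49 genes of heat shock, unfolded protein and integrated stress response. Over all genes 1.61% rose and 2.35% fell. In 33 xenobiotic and oxidative stress genes, 0 rose and 0 fell.

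Among signals and their modulators, IGFBP6 rose by 1.35 (SE 0.21) and IGFBP2 fell by 0.91 (SE 0.13), both binding proteins of insulin-like growth factors. NRP1, a coreceptor for semaphorins and VEGF, fell by 0.82 (SE 0.12). Its second probe set, far dimmer (mean log2 level 4.21 against 9.33), differed by 0.04. The mean of the NRP1 pair did not pass (limma adjusted p = 0.0674). LYPD6, a modulator of WNT signalling, had DMSO samples between 6.76 and 6.96 and drug samples between 6.03 and 6.33. It fell by 0.69 (SE 0.07), by 0.69 under each drug. LGR4, a receptor for R-spondins, fell by 0.50.

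Further large changes were in genes of mixed roles. PAX6, an eye and brain transcription factor, rose by 1.54 (SE 0.23) and GCG, which encodes proglucagon, by 1.20 (SE 0.21). DOK4, a docking protein, fell by 1.80 (SE 0.29), the nuclease DNASE1L3 by 1.49 (SE 0.21), the membrane protein EMP1 by 1.44 (SE 0.32), PMCH, which encodes melanin-concentrating hormone, by 1.05 (SE 0.17) and CDO1, a cysteine dioxygenase, by 0.94 (SE 0.14). The purinergic receptor P2RY4 fell by 0.94 (SE 0.21). DOK4, EMP1 and P2RY4 were each highest in DMSO 4, and the calls of EMP1 and P2RY4 ended in 7 and 8 of 12 omissions. The second probe sets of GCG (0.02), DNASE1L3 (-0.71) and CDO1 (-0.42) did not pass. Their mean log2 levels were 3.82, 5.87 and 6.72.

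**Figure D4:**
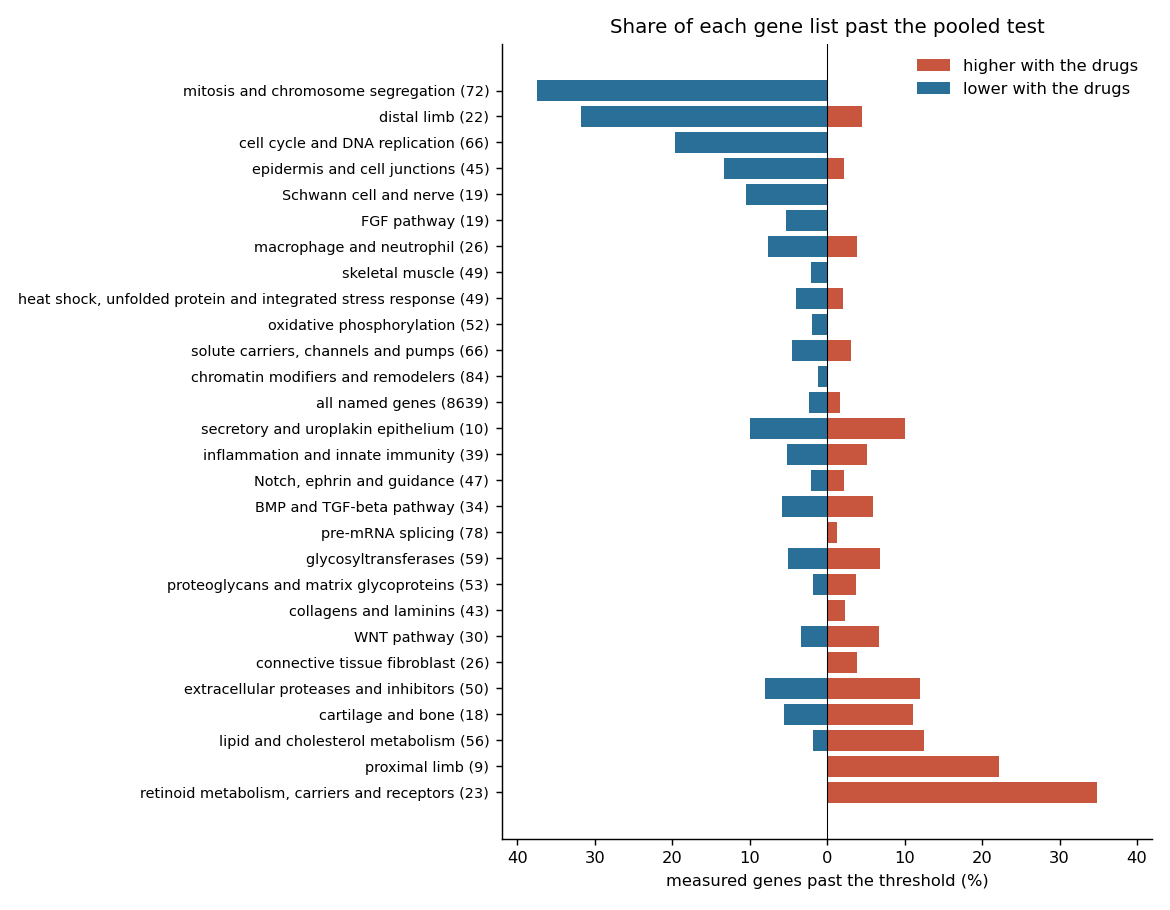
Share of each list's measured genes that passed the pooled test, higher with the drugs to the right and lower to the left, with the number measured in brackets. Lists with no such gene are left out. The lists were chosen with earlier results of these data known. Retinoid genes reach the largest share to the right, with 8 of 23, and mitosis genes the largest to the left, with 27 of 72.

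In the connective tissue fibroblast list, FAP was the 1 of 26 genes that passed, where 1.61% of all genes rose and 2.35% fell. Of the 26 differences 24 were above 0, and the median was 0.23 (0.20 without DMSO 4 and LE135 4). The mean deviation of the list lay between -0.37 and -0.03 in DMSO, between 0.005 and 0.30 in RA and between -0.15 and 0.16 in LE135. RA did not overlap DMSO but came close to it, and LE135 overlapped DMSO. Of the 11 blastema mesenchyme markers 0 passed, 9 differed upward and the median was 0.26, with overlapping groups.

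Of the markers of other cell types and the housekeeping lists, none passed among 11 erythrocyte, 8 lymphocyte, 16 endothelial, 16 pericyte and smooth muscle, 8 pigment cell, 58 ribosomal protein or 42 proteasome genes. Of 26 macrophage and neutrophil genes 2 fell and 1 rose, against 2.35% and 1.61% of all genes. Without DMSO 2, 0 fell and 0 rose, and without DMSO 4 and LE135 4, 2 fell and 3 rose. The deviation of the macrophage and neutrophil list ranged from -0.12 to 0.10 in DMSO, -0.18 to 0.26 in RA and -0.27 to 0.20 in LE135. Skeletal muscle genes had a median of 0.32, with deviations from -1.12 to 0.32 in DMSO, -0.70 to 0.87 in RA and -0.30 to 0.37 in LE135, and 1 of 49, NEBL, fell. Without DMSO 4 and LE135 4 the muscle median was 0.05, and muscle content's part in the pooled differences was not tested.

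RA was also compared directly with LE135. No DMSO level enters that difference, but the spread behind its intervals and p-values is estimated over all 12 samples, DMSO included. The comparison passed in 4 of 20035 probe sets (0.02%), and NRIP1 was the 1 of them among the 503. For no other common gene above, MATN4, UPK3A, EHF and BMPR1B included, did the difference between RA and LE135 pass. The 95% interval of RA minus LE135 lay within 1.5-fold for 381 of the 503 (75.7%), against 82.1% of all probe sets, and within 2-fold for 466 (92.6%), against 95.4%. For the other 122 probe sets a difference of over 1.5-fold between the drugs lies inside the interval, so a missed threshold does not show that the drugs act alike there.

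Unadjusted p under 0.05 occurred in 122 of the 503 (24.3%) and in 7.67% of all probe sets, and the same estimate of spread enters this test and the pooled one. Among those that were higher with the drugs, 41 were further from DMSO in RA and 23 in LE135. Among those that were lower, 15 were further in RA and 43 in LE135. Over the common genes, 50 of 90 rises were larger in RA and 39 in LE135, and 108 of 153 falls were larger in LE135.

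Closest alike was TM6SF2, a membrane protein of lipid handling, at 0.86 under each drug, with a second probe set at 0.84 over both. Its RA minus LE135 interval ran from -0.26 to 0.26. CYP26A1, at 5.87 and 5.55, had an interval from -1.42 to 2.06, with an SD of 0.15 in RA and 0.20 in LE135 but 2.16 in DMSO, which enters that interval. Further from alike were TFPI2 (-0.52 under RA and -1.26 under LE135), NEBL (-0.41 and -1.14) and KIF11, a spindle motor (-0.21 and -0.52), with adjusted p of 0.13, 0.082 and 0.36 for the difference in limma. With the 8 drug samples as a single group NEBL and KIF11 did not pass against DMSO (adjusted p = 0.0645 and 0.102), and the KIF11 call ended in 6 of 12 omissions. The mean of the KIF11 probe sets did not pass either (limma adjusted p = 0.175).

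**Figure D5:**
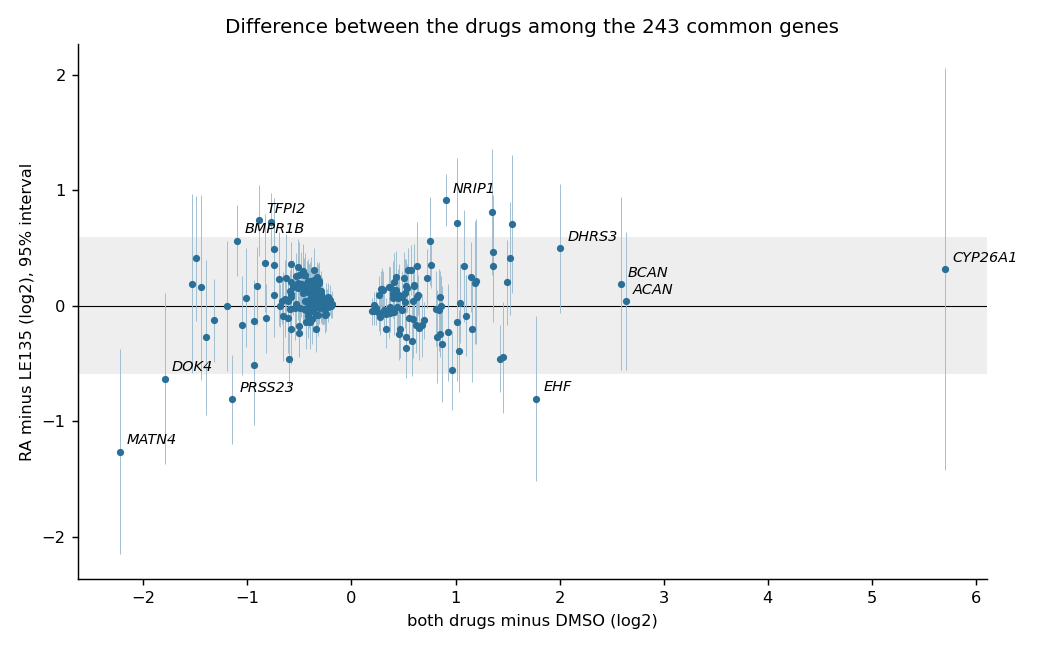
RA minus LE135 with its 95% interval (log2) against the difference of both drugs from DMSO (log2), for the 243 common genes. The grey band marks 1.5-fold. MATN4 lies lowest, and NRIP1 is among the genes above the band.

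The rule's limit was fine-grained. Of the 772 probe sets 458 had less than 0.1 log2 between the nearest drug and the nearest DMSO sample, the smallest gap being 0.0002, and 2179 probe sets missed the rule by an overlap under 0.1. P2RY4 (gap 0.01) and MEIS2 (gap 0.02) lay just inside, and CYP26B1 (-0.01) and KREMEN1 (-0.02) just outside. The 243 common genes included 66 with 82 other probe sets, of which 63 differed in the same direction, 9 passed in it and 0 passed in the opposite one. Of the 503 probe sets 206 had no gene symbol.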

How the data were processed

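Expression was measured in 12 pooled blastema samples, 1 Affymetrix array each. The deposited values are log2 expression, made by RMA per the submitters' processing notes, whose version the sources used here do not give. The 45 control probe sets (identifiers starting AFFX) were left out, and no filter on dim probe sets was applied to the 20035 that remained. Platform annotation gave 1 symbol to 10951 probe sets and none to 9084. The probe set with the highest mean stood for its gene.

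A linear model with a mean per treatment was fitted in limma 3.58.1 (R 4.3.3) to all 12 samples. Both drugs against DMSO was the mean of the RA and LE135 means minus the DMSO mean, with Benjamini-Hochberg adjustment over all tested probe sets at 0.05. The fit was tested on simulated data. The simulated samples were independent with normal noise and none stood apart, so that test does not cover samples such as DMSO 4 and LE135 4. Samples were taken as independent pools, and their number limits the precision.

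Genes were named by rule: the 15 largest rises and falls among common genes, the 8 widest gaps each way, up to 4 members of each list by p, those that differed between the drugs, the 4 most and least alike in both, and 10 fixed genes. Of the fixed genes RARB, the beta receptor, had no probe set under its symbol and so has no value here. ALDH1A3, TP63, NCAPG, NCAPD2, NCAPD3, SMC2, SMC4, HMMR, NUSAP1, ESPL1, ELOVL7, RARA, ALDH1A2, CYP26C1 and COL2A1 were named after their values were seen. The members and lists were chosen with earlier results of these data known. Alternatives changed the model, normalization, filter and samples.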

Additional observations from a re-analysis of the deposited data

Results flagged for a closer look

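In 22 of 270 groups of 4 samples, over the 90 named genes, 1 sample lay far from the other 3, where chance alone gives about 1 in 20 such groups. DMSO 4 and LE135 4 accounted for 5 of these each. DMSO 4 was low in ACAN (7.76) and MEIS2 (9.14) and high in DOK4 (9.24), P2RY4 (9.63) and IRF1 (9.92). LE135 4 was low in DLX6 (6.80), UAP1 (9.36) and MCM5 (9.62) and high in HSP90AB1 (13.89) and NRG1 (5.05).

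The other far samples were spread over the arrays. Among DMSO samples they were MCM10 in DMSO 1 (7.41, high), ZIC5 in DMSO 2 (5.72, high) and CYCS in DMSO 3 (11.18, low). Among RA samples they were ELOVL5 (11.26, high) and CYP26B1 (9.83, high) in RA 1, CDO1 (9.02, low) and RWDD2B (6.65, low) in RA 2 and DPP4 (7.56, low) in RA 4. Among LE135 samples they were CCNE1 (7.36, low) and SMPDL3B (9.57, low) in LE135 1 and LYPD6 (6.33, high) and BMP1 (9.71, low) in LE135 3.

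The effects of the drugs differed in the direct test for 4 genes. RA minus LE135 was 0.91 for NRIP1, -1.73 for LMO1, -1.31 for LHX2 and -0.75 for SPRY1 (limma, adjusted over all probe sets).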

How the results depend on the processing

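The count of probe sets past the pooled test was 691. It was 98 under the stricter rule on the larger single-drug p (77 of them over 1.5-fold, against 266). With array weights it was 1765. Without DMSO 4 and LE135 4, a pair chosen after seeing the data, it was 1822, and 491 of the 503 common probe sets still passed. Leaving out single samples gave 380 (without DMSO 3) to 939 (without DMSO 4), with 394 without DMSO 1 and 445 without LE135 1, and 195 to 319 over 1.5-fold. Non-overlapping probe sets numbered 825 to 2137 in these omissions, the highest without DMSO 4, and 2504 without DMSO 4 and LE135 4, against 772. Fewer samples alone make non-overlap easier. RA minus LE135 lay within 1.5-fold for 357 to 403 of the 503 in the omissions.

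Of the 243 common genes 121 passed in all 12 omissions. With the 8 drug samples as a single group 21 of the 90 named genes did not pass. Median centring, repeated quantile normalization, a trended robust prior, an unmoderated model and leaving out the dimmest 25% of probe sets gave 538 to 725, and no named gene changed direction in any alternative run. With a replicate block the pooled count was 791, and RA minus LE135 lay within 1.5-fold for 387 of the 503. Of the 691 main calls 590 passed with the block, as did 445 of the 503 common probe sets and 214 of the 243 common genes. The block ended 3 named calls, SPRY1 (adjusted p = 0.0608), KREMEN1 (0.0506) and TLR3 (0.0633). Deviations of samples with the same number correlated at 0.243, 0.126, 0.322 and 0.607 between DMSO and LE135, at 0.04, 0.179, 0.087 and 0.088 between DMSO and RA and at 0.209, -0.168, 0.261 and -0.175 between RA and LE135. Not every pair exceeded 0.1, so the main fit used no block, although every correlation between DMSO and LE135 was positive. Whether same-numbered DMSO and LE135 samples share more than a number was not tested. A promoter motif search was not run.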

Other observations

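Several of the strongest shared changes were in probe sets that the choice of the brightest probe set per gene left out, and they are named here after their values were seen. A dimmer probe set of GMDS, which makes the first intermediate of GDP-fucose, read 6.58, 6.65, 6.68 and 6.89 in DMSO, 9.43, 9.32, 9.16 and 9.22 in RA and 9.03, 9.06, 9.65 and 9.79 in LE135. Its difference was 2.63 (SE 0.14), while the brighter GMDS probe set did not pass. A dimmer probe set of EFEMP1, a fibulin of the extracellular matrix, differed by 1.92 (SE 0.23) and one of RHCG, an ammonium transporter related to RHBG, by 1.71 (SE 0.23), and their brighter probe sets did not pass either.

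Among the common probe sets, some without a gene symbol rose more than any named one but CYP26A1 or fell more than MATN4. The probe sets axo27297-f_at and axo14037-f_at were higher with the drugs by 3.35 (SE 0.21) and 3.20 (SE 0.21), and axo06032-f_at and axo30895-f_at were lower, by -2.95 (SE 0.63) and -2.37 (SE 0.40). In axo06032-f_at DMSO 4, at 12.09, stood above the other DMSO samples (8.38 to 8.83).

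IRF1, an interferon-response factor, rose by 1.28 with overlapping groups. It read 8.44, 8.53, 8.57 and 9.92 in DMSO, 9.75 to 10.07 in RA and 9.90 to 11.16 in LE135, and DMSO 4 was the sample that overlapped. The call ended in 8 of 12 omissions of a single sample (adjusted p up to 0.124) and in the unmoderated model (0.0828), and without DMSO 4 and LE135 4 it held, at 1.49. Of 39 inflammation and innate immunity genes 2 rose and 2 fell, against 1.61% and 2.35% of all genes.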
